A study of Mus musculus with 3 samples.

Results

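Neutrophils carry ready-made antimicrobial proteins whose genes are switched on in 2 waves, and 10 of these genes are described here in cells from the inner surface of mouse bone that were sorted to lack blood cell antigens. The early genes were Elane, Mpo, Prtn3 and Ctsg, and the late genes were Ngp, Camp, Ltf, Lcn2, S100a8 and S100a9. Each probe set of the array whose single gene symbol was 1 of these names was taken, which gave 10 probe sets, 1 per gene, among 18193 named genes. The genes were selected on their signals over the same 3 arrays that are described here, so their levels and differences are a description and none was tested.

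The cells came from femur and tibia fragments of C57BL/6 mice treated with collagenase, and all 3 populations shared a gate that excluded CD45, CD31 and Ter119, antigens of leukocytes, endothelium and red cells. The sort then used 2 surface proteins, the adhesion receptor ALCAM and the progenitor antigen Sca-1. It gave ALCAM(+) Sca-1(-) cells, here named ALCAM+, then ALCAM(-) Sca-1(+) cells, here named Sca-1+, and lastly ALCAM(-) Sca-1(-) cells, here named marker-negative or, for short, negative. With 1 array for each population, no difference below has a replicate check and none carries a p-value. The number, age and pooling of the mice are not given in the sources used here. Signals are MAS5 intensities on a linear scale, in arbitrary units. A signal at or below the floor of 75.4, the median of all non-control probe sets over the 3 arrays, is treated as not distinguished from dim probe sets, and a fold change against it is given as at least that size.

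The azurophil or primary granules form first, in promyelocytes, and hold myeloperoxidase and the serine proteases elastase, proteinase 3 and cathepsin G. Transcription of these genes shuts down as the cells mature, when the genes of the specific or secondary granules, which hold lactoferrin, lipocalin 2 and the cathelicidin precursor, are turned on in myelocytes and metamyelocytes. S100A8 and S100A9, which form calprotectin, are cytosolic proteins of the same later stages and of monocytes, and are grouped with the late genes for that reason. The factors PU.1 and MYB act on the early genes and C/EBP-epsilon is needed for the late ones. Lcn2 is also made by epithelial and mesenchymal cells under inflammatory stimuli.

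The 2 groups of genes had opposite patterns. All 4 early genes had their highest signal in negative cells and all 6 late genes had theirs in Sca-1+ cells, while ALCAM+ cells had the lowest for Mpo, Prtn3, Ngp, S100a8 and S100a9. For the other 5 genes ALCAM+ cells and 1 other population both lay at or below the floor explained above, which gives no order between them. Of all genes above the floor on 1 array or more, 33.2% were highest in negative cells and 38.7% in Sca-1+ cells. The early genes had signals of 6.3 to 37.3 in ALCAM+ cells, 32.5 to 109.7 in Sca-1+ cells and 267.9 to 1355.4 in negative cells. The late genes had 7.4 to 98.8 in ALCAM+ cells, 1116.4 to 4900.5 in Sca-1+ cells and 56.3 to 575.9 in negative cells. In these bulk arrays fewer cells of a type and less RNA per cell cannot be told apart.

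**Figure D1:**
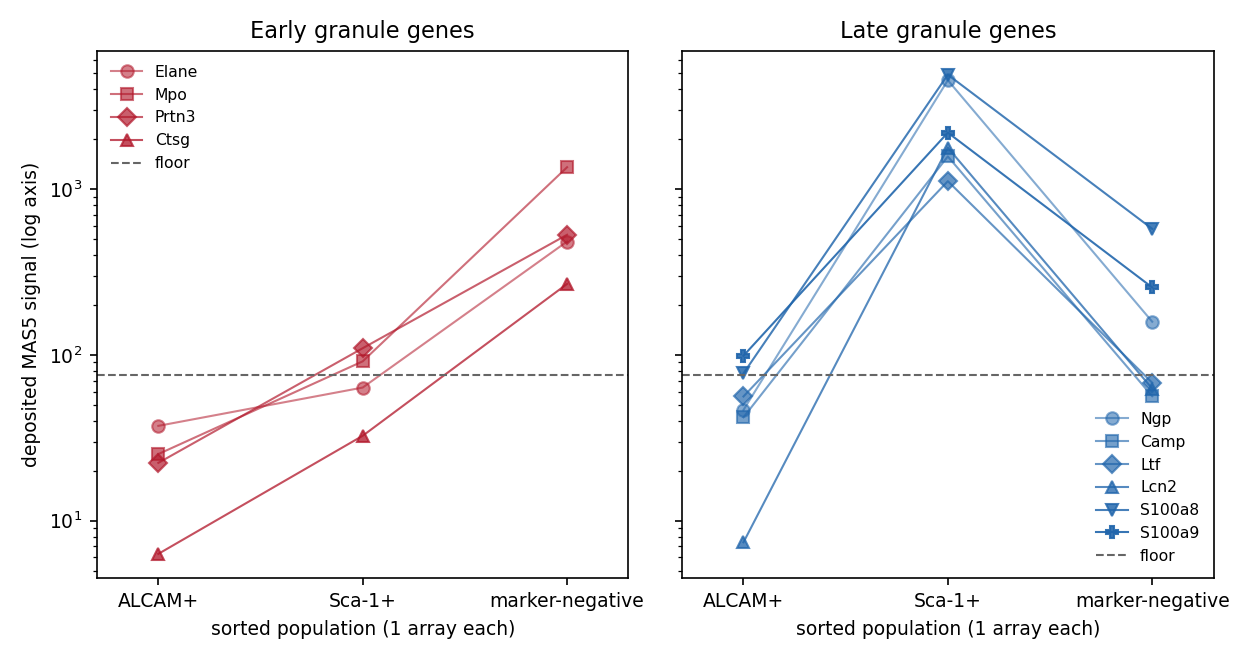
Deposited MAS5 signal (log axis, arbitrary units) of the 4 early genes (left) and the 6 late genes (right) on the ALCAM+, Sca-1+ and marker-negative arrays, 1 point per probe set and array, with the floor of 75.4 as a dashed line. The early genes peak in marker-negative cells at 267.9 to 1355.4 and the late genes in Sca-1+ cells at 1116.4 to 4900.5.

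Mpo encodes myeloperoxidase, the haem enzyme that makes hypochlorous acid. Its signal was 25.2 in ALCAM+ cells, 91.4 in Sca-1+ cells and 1355.4 in negative cells. It was thus 14.8-fold lower in Sca-1+ than in negative cells, both values lying above the floor, and at least 18.0-fold lower in ALCAM+ than in negative cells.

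Prtn3 encodes proteinase 3, the autoantigen of some forms of vasculitis, and Elane encodes neutrophil elastase, in which inherited defects cause neutropenia in people. Prtn3 had signals of 22.3 in ALCAM+ cells, 109.7 in Sca-1+ cells and 530.5 in negative cells. It was 4.84-fold lower in Sca-1+ and at least 7.04-fold lower in ALCAM+ than in negative cells. Elane had 37.3 in ALCAM+ cells, 63.5 in Sca-1+ cells and 483.0 in negative cells, so that only the last population lay above the floor. Its signal was at least 6.41-fold lower in each of the ALCAM+ and Sca-1+ populations than in negative cells.

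Ctsg, the gene of cathepsin G, was the early gene that missed the size rule of 4-fold used below, with Prtn3 just inside it. Its signals were 6.3 in ALCAM+ cells, 32.5 in Sca-1+ cells and 267.9 in negative cells. Since both sorted-positive populations lay below the floor, its signal was at least 3.55-fold lower in each of them than in negative cells, a minimum set by the floor. The deposited signals without the floor differed 42.5-fold between ALCAM+ and negative cells and 8.24-fold between Sca-1+ and negative cells. Such ratios of dim MAS5 signals have no known error here.

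Each of the 4 early genes held the letters GAGGAAG, a core of PU.1 binding sites, on the sense strand of its promoter, taken as the 250 bases before to 50 bases after the start of the gene in RefSeq (GRCm38.p6). The stretches are shown because the early genes shared this word; the word is in capitals, other bases are in lower case, and each run reads 5′ to 3′ along the gene.
Elane, chr10:79886202-79886258, plus strand: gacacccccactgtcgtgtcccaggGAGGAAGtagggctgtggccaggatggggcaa
Prtn3, chr10:79879547-79879603, plus strand: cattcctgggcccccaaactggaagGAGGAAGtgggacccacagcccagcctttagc
Mpo, chr11:87793534-87793568, plus strand: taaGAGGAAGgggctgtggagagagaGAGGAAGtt
Ctsg, chr14:56102759-56102815, minus strand: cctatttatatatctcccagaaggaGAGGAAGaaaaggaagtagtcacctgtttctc
The word began 85 bases before the start in Elane and 95 bases before it in Prtn3. In Mpo 2 copies began 247 and 224 bases before the start, and in Ctsg it began 216 bases before the start. Read on both strands, GAGGAAG occurred in 4 of 4 early promoters, in 2 of 6 late promoters (Lcn2 and S100a8) and in 13.6% of all 32851 promoters of the RefSeq table.

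Ngp, the gene of neutrophilic granule protein, a secreted relative of the cathelicidins, had signals of 46.5 in ALCAM+ cells, 4537.5 in Sca-1+ cells and 158.5 in negative cells. It was 28.6-fold higher in Sca-1+ than in negative cells, with both values above the floor, which ranked it 35 among the 12643 genes that exceeded the floor on 1 array or more. In ALCAM+ cells it was at least 60.2-fold lower than in Sca-1+ cells and at least 2.10-fold lower than in negative cells.

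Camp, Ltf and Lcn2 were above the floor in Sca-1+ cells only. Camp, which encodes the precursor of the antimicrobial peptide CRAMP, had 42.0 in ALCAM+ cells, 1574.6 in Sca-1+ cells and 56.3 in negative cells, a difference of at least 20.9-fold between Sca-1+ and each other population. Ltf encodes lactoferrin, which binds iron, and had 56.1 in ALCAM+ cells, 1116.4 in Sca-1+ cells and 67.9 in negative cells, which put Sca-1+ at least 14.8-fold higher than either of the others. Lcn2 encodes lipocalin 2, which captures bacterial siderophores, and had 7.4 in ALCAM+ cells, 1777.6 in Sca-1+ cells and 62.6 in negative cells, which put Sca-1+ at least 23.6-fold higher than either. These 3 genes give no order between ALCAM+ and negative cells, where both signals lay at or below the floor.

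S100a8 and S100a9 had the same order of populations and were above the floor on all 3 arrays. On the deposited scale their folds are thus measured ones. In ALCAM+ cells, however, S100a8 lay only just above the floor, so its folds against that population rest on a dim signal. With poly-A scaling the log2 differences of ALCAM+ against Sca-1+ cells moved from -5.99 to -6.44 for S100a8 and from -4.47 to -5.27 for S100a9. S100a8 had 77.3 in ALCAM+ cells, 4900.5 in Sca-1+ cells and 575.9 in negative cells. It was 8.51-fold higher in Sca-1+ than in negative cells, 7.45-fold lower in ALCAM+ than in negative cells and 63.4-fold lower in ALCAM+ than in Sca-1+ cells. S100a9 had 98.8 in ALCAM+ cells, 2191.7 in Sca-1+ cells and 255.2 in negative cells. It was 8.59-fold higher in Sca-1+ than in negative cells, 2.58-fold lower in ALCAM+ than in negative cells and 22.2-fold lower in ALCAM+ than in Sca-1+ cells. The calprotectin genes therefore differed less between Sca-1+ and negative cells than Ngp, Camp, Ltf and Lcn2 did, by factors of 8.51 and 8.59 against factors or bounds of 14.8 to 28.6. The S100a8 probe set has the suffix that the array's maker gives to probe sets whose probes can match more than 1 transcript.

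Among the late promoters a loose C/EBP pattern, TTNCNNNAA, was found on either strand in 3 of 6 (Ngp, Ltf and S100a9), in 0 of 4 early promoters and in 36.6% of all promoters. The stricter TTGCNNAAT occurred in Ltf alone of the 10 genes and in 2.40% of all promoters. The stretches below are shown because they hold these words, in capitals, in the late genes.
Ngp, chr9:110419645-110419703, plus strand: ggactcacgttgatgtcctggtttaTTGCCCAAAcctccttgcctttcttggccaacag
S100a9, chr3:90695818-90695876, minus strand: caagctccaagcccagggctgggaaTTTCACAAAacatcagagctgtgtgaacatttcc
Ltf, chr9:111019191-111019249, plus strand: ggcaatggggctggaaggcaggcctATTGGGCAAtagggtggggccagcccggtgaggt
The Ngp word began 138 bases, the S100a9 word 130 bases and the Ltf word 76 bases before the start, and the Ltf word is TTGCNNAAT read on the opposite strand. A second stretch of Ltf held the loose pattern 217 bases before the start. The MYB pattern TAACNG was in Elane and Mpo and in 0 of 6 late promoters, against 23.3% of all promoters. The GATA pattern AGATAA was in Ltf and S100a9 and in 11.2% of all promoters, and the TATA pattern TATAAA in Ctsg, S100a8 and S100a9 and in 13.6%. A match describes letters in a window of 300 bases and is no evidence of binding.

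Sca-1+ and negative cells differ in Sca-1 and both lack ALCAM. Of the 4 early genes 3 were lower by 4-fold or more in Sca-1+ cells (Elane, Mpo and Prtn3) and 0 higher, with a median log2 difference of -2.48 and a range of -3.89 to -1.83. Of the 6 late genes 6 were at least 4-fold higher and 0 lower, with a median of 4.14 and a range of 3.09 to 4.84. Over all 12643 genes 4.71% were lower by 4-fold or more in Sca-1+ cells and 5.46% higher, with a median of 0.00. Since the genes were chosen on this contrast, these counts describe them and show nothing about granule genes in general.

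ALCAM+ and negative cells differ in ALCAM and both lack Sca-1. Again 3 of 4 early genes were lower by 4-fold or more in ALCAM+ cells and 0 higher, with a median of -2.75. Of the 6 late genes only S100a8 was at least 4-fold lower and 0 were higher, with a median of -0.54. The floor sets Camp, Ltf and Lcn2 to 0 in this median, which was -1.47 with the floor at the 25th percentile and -1.36 with a pseudocount of 16 and no floor. Of all genes 2.67% were lower by 4-fold or more in ALCAM+ cells and 2.01% higher, with a median of -0.03.

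The comparison of ALCAM+ with Sca-1+ cells uses the same arrays as the other 2 and is not independent of them. All 6 late genes were lower by 4-fold or more in ALCAM+ cells, the median being -4.52 and a range of -5.99 to -3.89. None of the 4 early genes passed 4-fold, with a median of -0.14, because 2 of the 4 were below the floor in both populations and the other 2 only just above it in Sca-1+ cells. The shares over all genes were 5.86% lower and 3.99% higher.

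Both conditions of a pattern can be read together. The 6 late genes were each higher by 4-fold or more in Sca-1+ cells than in both other populations, as were 4.03% of all genes. Among the early genes Elane, Mpo and Prtn3 were higher by 4-fold or more in negative cells than in both others, as were 1.62% of all genes. At a size rule of 8-fold Mpo was the early gene lower in Sca-1+ cells (2.32% of all genes) and in ALCAM+ cells (0.823%) than in negative cells, and the 6 late genes were all higher in Sca-1+ than in negative cells (2.19%) and lower in ALCAM+ than in Sca-1+ cells (3.03%). At 2-fold the 4 early genes were lower in Sca-1+ (12.7%) and in ALCAM+ cells (10.6%) than in negative cells, the 6 late genes were higher in Sca-1+ than in negative cells (15.0%) and lower in ALCAM+ than in Sca-1+ cells (15.8%), and Ngp, S100a8 and S100a9 were lower in ALCAM+ than in negative cells.

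**Figure D2:**
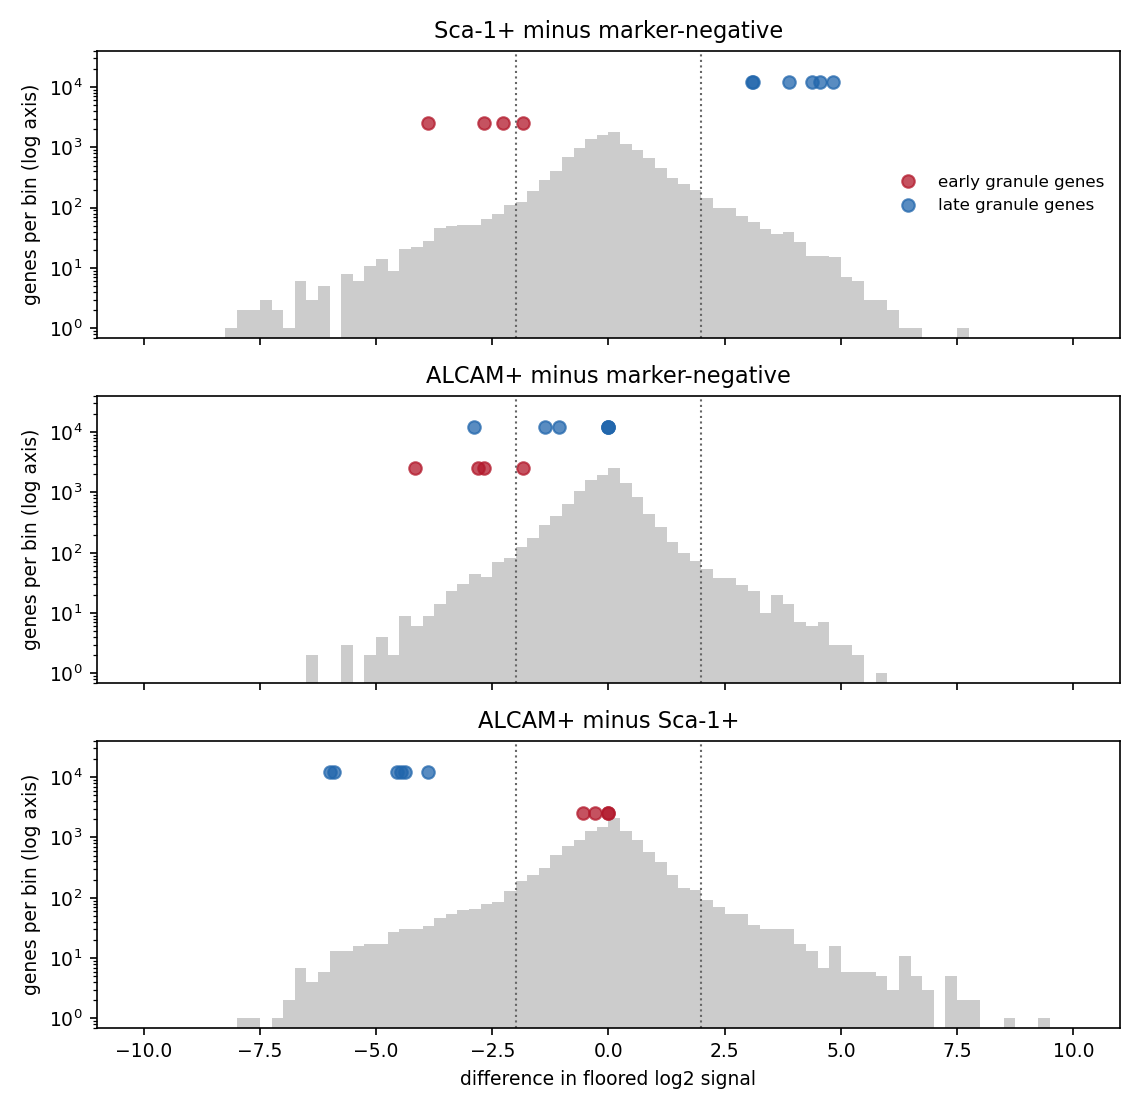
Differences in floored log2 signal of the 3 comparisons, with the number of genes per bin on a log axis (grey, 12643 genes), the early genes as red points, the late genes as blue points (their height carries no value) and the 4-fold rule as dotted lines. Late genes lie at 3.09 to 4.84 for Sca-1+ minus marker-negative and at -5.99 to -3.89 for ALCAM+ minus Sca-1+, and early genes at -3.89 to -1.83 for Sca-1+ minus marker-negative.

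The scale of the arrays bears on the shares over all genes. With the poly-A spike-ins setting the scale in place of the deposited one, 7.62% of genes were higher and 3.99% lower in Sca-1+ than in negative cells, 1.12% higher and 5.13% lower in ALCAM+ than in negative cells, and 2.06% higher and 13.5% lower in ALCAM+ than in Sca-1+ cells. The directions of the called genes among the 10 were kept under this scaling, but Prtn3 came to -1.95 on the log2 scale between Sca-1+ and negative cells, short of 4-fold, which left 2 of 4 early genes lower.

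The profile of a gene can be written as its 3 floored log2 signals centred on their mean. The floor sets the ALCAM+ value of all 4 early genes and the Sca-1+ value of Elane and Ctsg. Within a class the 21 pairs of genes lay at a median distance of 1.12 and at most 2.12 from each other, and the 24 pairs of an early with a late gene lay at least 3.85 apart, a separation that follows from how the genes were chosen. Within the early class Mpo lay farthest from the class median, at 1.15, and within the late class S100a8 did, at 1.73.

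Other genes of the neutrophil granules were less uniform. Of 13 measured genes in a list of other azurophil and promyelocyte genes, 4 were higher by 4-fold or more in Sca-1+ than in negative cells and 0 lower, and the median log2 difference was 1.10, so that the list did not follow the early genes. The 4 were Serpinb1a, which encodes an inhibitor of neutrophil proteases (2236.5 in Sca-1+ against 136.7 in negative cells), Mgst1 (10880.2 against 800.1), Gstm1 (7401.1 against 720.9) and the lysozyme gene Lyz1 (2823.0 against 543.5). Mgst1 and Gstm1 encode glutathione transferases made in many cell types. Lyz2, the lysozyme gene of myeloid cells, named after its values were seen, had 96.6 in ALCAM+, 888.0 in Sca-1+ and 262.3 in negative cells. Ms4a3, a gene of granulocyte-monocyte progenitors named for the same reason, had 66.4 in ALCAM+, 60.7 in Sca-1+ and 138.4 in negative cells.

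Of 16 measured genes in a list of other specific and gelatinase granule genes, 3 were higher by 4-fold or more in Sca-1+ than in negative cells and 1 lower, with a median of 0.72. Their highest signal was in Sca-1+ cells for 13 of the 16, against 38.7% of all measured genes. Of these, Chil3 and, named after their values were seen, Mmp8, Cd177, Olfm4, Pglyrp1, Itgb2l and Lrg1 were above the floor in Sca-1+ cells only. They count as measured through that population alone, so the count gives no support of its own. Chil3, which encodes a chitinase-like protein of myeloid cells, had 1.2 in ALCAM+, 1333.6 in Sca-1+ and 14.9 in negative cells, which put Sca-1+ at least 17.7-fold higher than negative cells. Anxa3, an annexin gene of neutrophil granules and other cells, had 7531.2 in Sca-1+ against 365.8 in negative cells (20.6-fold higher), and Cyba, the p22-phox subunit gene of the NADPH oxidase, 3473.2 against 733.8. Chil1, a chitinase-like gene also made by cartilage cells, went the other way, with 675.0 in Sca-1+ against 3781.7 in negative cells. Cd177, Mmp8 and Mmp9, named after their values were seen, were dim and above the floor mainly in Sca-1+ cells, at 194.3, 173.2 and 248.5 there against 15.0, 46.7 and 88.7 in negative cells.

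Surface, chemotaxis and cytosol genes of mature neutrophils did not share 1 pattern. Of 19 genes with a named probe set 13 exceeded the floor on 1 array or more, and 0 of these were at least 4-fold apart between Sca-1+ and negative cells, with a median of 0.59. Their highest signal was in Sca-1+ cells for 8 of the 13, against 38.7% of all measured genes. Itgb2 and Ncf4 were above the floor in Sca-1+ cells only, at 125.1 and 145.4 there, so they count as measured through that population alone. The largest difference in floored signal between Sca-1+ and negative cells was that of Il1r2, the decoy interleukin-1 receptor gene, with 530.1 against 158.1 (3.35-fold). Ifitm6, also above the floor in Sca-1+ cells only, had 235.7 against 49.1, at least 3.13-fold, a bound that gives no order against Il1r2. Ncf1, an NADPH oxidase subunit gene, had 670.9 in ALCAM+, 121.1 in Sca-1+ and 80.6 in negative cells, and was the list's gene past 4-fold in ALCAM+ against negative cells (8.32-fold higher). Cxcr2, Itgam and Clec4d stayed below the floor on all 3 arrays, and Csf3r, the G-CSF receptor gene, had 86.1 in ALCAM+, 76.1 in Sca-1+ and 68.4 in negative cells. Itgb2, Ncf4, Ncf1, Cxcr2, Itgam, Clec4d and Csf3r were named after their values were seen.

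**Figure D3:**
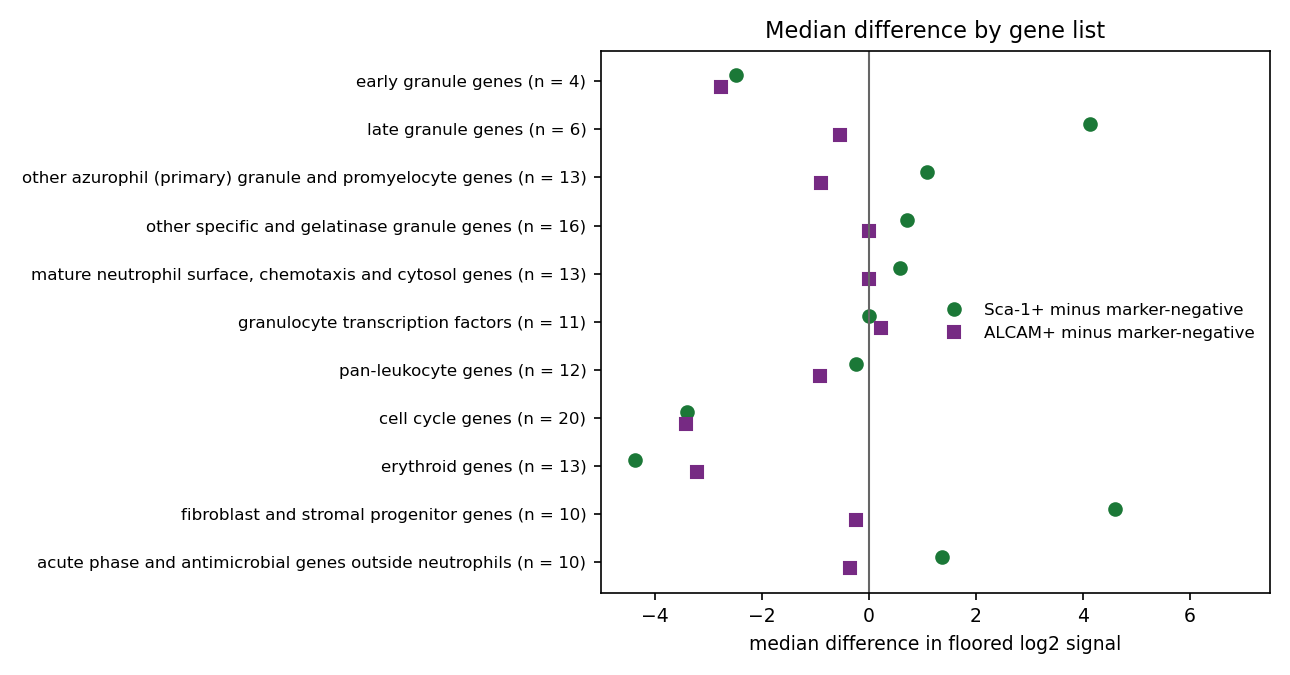
Median difference in floored log2 signal for the early and late granule genes and for 9 other gene lists without them, for Sca-1+ minus marker-negative (green circles) and ALCAM+ minus marker-negative cells (purple squares), with n the genes that exceeded the floor on 1 array or more. The late granule genes (4.14) and the fibroblast list (4.60) lie to the right for Sca-1+ cells, and the early granule (-2.48), cell cycle (-3.39) and erythroid (-4.37) lists to the left.

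Among 11 measured transcription factor genes of granulocytes, Myb, which drives proliferation of progenitors, was the only one at least 4-fold apart between Sca-1+ and negative cells. It had 21.0 in ALCAM+, 26.1 in Sca-1+ and 487.5 in negative cells, above the floor in the last of these only. The list's median was 0.00. Runx1 had 214.6 in ALCAM+, 896.5 in Sca-1+ and 322.7 in negative cells. In that order Cebpa had 76.8, 238.3 and 151.0, and Egr2 had 5267.6, 2525.1 and 4503.9. Cebpe, the gene of C/EBP-epsilon, had no probe set with a single gene symbol, so its level is not known here. Spi1, which encodes PU.1, was at 31.3, 77.2 and 67.7 in the same order of populations and Gfi1 at 97.5, 11.3 and 51.3, both named after their values were seen.

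The arrays were alike in the share of probe sets above the floor (49.7% in ALCAM+, 48.9% in Sca-1+ and 51.4% in negative cells) and in the ratio of 3′ to 5′ signal of Actb (2.77, 2.55 and 2.77). Alcam had 267.7 in ALCAM+ cells, 41.1 in Sca-1+ cells and 36.3 in negative cells in its brightest probe set, and Pecam1, the CD31 gene, was below the floor on each array. The gate excluded CD45, and its gene Ptprc had 11.6 in ALCAM+, 163.2 in Sca-1+ and 159.4 in negative cells in the brighter of its 2 probe sets. The other probe set stayed below the floor. The pan-leukocyte list had 12 of 14 genes measured, with 4 above the floor in ALCAM+, 8 in Sca-1+ and 12 in negative cells. The summed signal of its 14 genes was 1747 in ALCAM+, 1824 in Sca-1+ and 4706 in negative cells, of which Fermt3, the kindlin gene of blood cells, gave 35.9, 43.1 and 2162.0 and Lcp1, the L-plastin gene, 1076.3, 200.7 and 702.6. Lcp1 thus gave most of the sum in ALCAM+ cells. Between Sca-1+ and negative cells 0 of the 12 were higher and 1 lower, with a median of -0.24. Cd53 and Cd48 of the list, named after their values were seen, stayed below the floor on all 3 arrays. The part of residual blood cells in the granule gene signals was not tested.

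Cell cycle and erythroid genes, like the early genes, were highest in negative cells, in 20 of 20 and 13 of 13 measured cases. The share over all measured genes was 33.2%. Some of the listed genes, such as Klf1 and Ccna2, were above the floor in negative cells only and count as measured through that population alone. The cell cycle list had 17 of 20 measured genes lower by 4-fold or more in Sca-1+ than in negative cells and 16 of 20 lower by that size in ALCAM+ than in negative cells, with medians of -3.39 and -3.42. Mki67, the proliferation marker gene, had 269.1 in ALCAM+, 203.8 in Sca-1+ and 6858.4 in negative cells. Of 13 erythroid genes, 11 were lower by that size in Sca-1+ and 12 in ALCAM+ cells, with medians of -4.37 and -3.20, and the summed signal of the list was 5026 in ALCAM+, 998.8 in Sca-1+ and 42355 in negative cells. Car2, a carbonic anhydrase gene, gave 2879.2, 17.0 and 13751.3 of these sums. Eosinophil, basophil and mast cell genes, 4 of which were measured, had 0 genes past 4-fold and a median of -1.26 between Sca-1+ and negative cells. Prg2, the eosinophil major basic protein gene, had 20.3 in ALCAM+, 3.3 in Sca-1+ and 267.5 in negative cells. Whether the early granule signals came with these cells was not tested.

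Most genes of the fibroblast list, like the late genes, were highest in Sca-1+ cells (8 of 10, against 38.7% of all measured genes). Lum and Dcn, named after their values were seen, were highest in ALCAM+ cells. The fibroblast and stromal progenitor list had 8 of 10 genes higher by 4-fold or more in Sca-1+ than in negative cells (5.46% of all genes), with a median of 4.60. In ALCAM+ against Sca-1+ cells 7 of 10 were lower by that size (5.86%). Acute phase and antimicrobial genes other than Lcn2 had 4 of 10 higher and 0 lower, with a median of 1.38. Cfb, the complement factor B gene, had 61.5 in ALCAM+, 3339.7 in Sca-1+ and 93.6 in negative cells, and Lbp, which encodes the lipopolysaccharide binding protein, 517.1, 13586.6 and 2268.5. The monocyte and macrophage list had 2 of 9 measured genes higher, Vcam1 and Lpl, which stromal cells also express. Adgre1, Mrc1, Ccr2, C1qa, C1qb and C1qc of that list, named after their values were seen, stayed below the floor on all 3 arrays. Csf1r, Cd68, Cd14 and Acp5 of the list, named for the same reason, were above the floor on all 3 arrays. Csf1r had 201.3 in ALCAM+, 166.2 in Sca-1+ and 133.5 in negative cells, and Cd68 had 112.5, 187.0 and 143.6. Which cells gave the late granule signals was not tested.

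The genes whose 3-array profile lay nearest to the class medians were taken as the 5 nearest of each class that are not members. For the early class they were Fbxo5 (distance 0.04), Ncapd2 (0.05), Wdhd1 (0.10), Incenp (0.11) and Dut (0.12), and for the late class Gstt1 (0.12), Ndnf (0.24), Nox4 (0.24), C1ra (0.24) and Olfml2b (0.26). Fbxo5, an inhibitor gene of the anaphase-promoting complex, had 55.3 in ALCAM+, 92.0 in Sca-1+ and 524.1 in negative cells. Gstt1, a glutathione transferase gene, had 118.1 in ALCAM+, 3162.5 in Sca-1+ and 181.2 in negative cells. The profiles rest on 3 arrays, so many genes can share 1. They also use floored signals, so a small distance to the early class need not hold for the deposited signals. Without the floor, Mpo and Ctsg differed 53.8-fold and 42.5-fold between ALCAM+ and negative cells. Ncapd2, above the floor on all 3 arrays, had 229.3 in ALCAM+ and 1569.6 in negative cells.

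Several of the 10 genes are neighbours on their chromosomes. Prtn3 and Elane lie next to each other on chromosome 10, S100a8 and S100a9 on chromosome 3, and Camp, Ngp and Ltf on chromosome 9 with other genes between them. The neighbours that are not members and were measured did not share the pattern. Ptpn23 and Klhl18 beside Ngp had log2 differences of -0.32 and 0.48 between Sca-1+ and negative cells, Nme6 and Cdc25a beside Camp -1.03 and -0.38, Ccrl2 beside Ltf -0.84, and 1110008P14Rik and Ptges2 beside Lcn2 -0.20 and 0.46. Next to the early genes, Plppr3 beside Prtn3, Tspoap1 and Lpo beside Mpo and Mcpt8 and Gzme beside Ctsg stayed below the floor on all 3 arrays. Mcpt8, a basophil protease gene, had 10.3 in ALCAM+, 6.8 in Sca-1+ and 54.5 in negative cells.

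The floor mattered more to these genes than the scaling did. Raising the floor to 433.8, the 75th percentile of all signals, 0 of 4 early genes stayed lower by 4-fold or more in Sca-1+ or in ALCAM+ than in negative cells, and Camp and Ltf fell short of 4-fold between Sca-1+ and negative cells, at log2 differences of 1.86 and 1.36. The shares over all genes at that floor were 2.65% lower and 4.1% higher in Sca-1+ and 1.02% lower in ALCAM+ than in negative cells. With the floor at the 25th percentile of 21.1, Ctsg passed 4-fold as well between Sca-1+ and negative cells, at -3.04. At that floor 5.28% of all genes were lower by 4-fold or more in Sca-1+ cells.

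**Figure D4:**
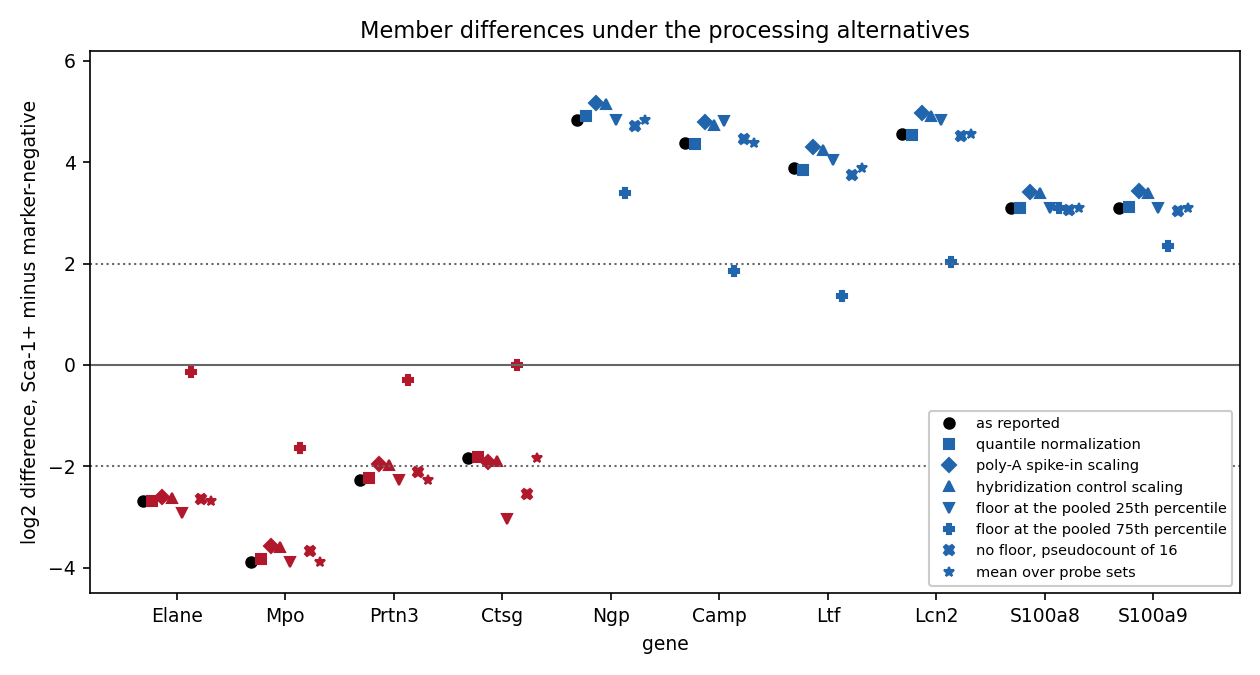
Log2 difference between Sca-1+ and marker-negative cells for each of the 10 genes as reported (black) and under 7 processing alternatives (coloured symbols; red early, blue late), with the 4-fold rule as dotted lines. Raising the floor to 433.8 moves the early genes towards 0 (Ctsg to 0.00, Elane to -0.15, Prtn3 to -0.29 and Mpo to -1.64). The late genes other than S100a8 (3.09) also move towards 0, the lowest being Ltf, from 3.89 to 1.36.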

How the data were processed

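TRIzol was used for total RNA, and the biotin-labelled cRNA came from a 2-cycle assay, per the labels' protocols. Such an assay amplifies small amounts of RNA and favours the 3′ ends of transcripts. The deposited values are linear signal intensities. The authors made these intensities with MAS5, according to the submitters' processing notes, with no version given in the sources used here. The trimmed mean (2% from each end) was 500.0 on each array, so the deposited scale was kept. Of 45037 non-control probe sets, 34945 had 1 gene symbol in the platform annotation, 932 had several and 9160 were not listed. Symbols were updated through Entrez identifiers to RefSeq (GRCm38.p6), which changed 0.

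Intensities were raised to the floor of 75.4, turned to log2 and subtracted between arrays. A gene was represented by its brightest probe set and counted at 4-fold or more. The 2 brightest probe sets of a gene disagreed with an SD of 0.54 to 0.75 on the log2 scale over 4152 genes, which leaves out the spread between mice and sorts. Having 1 array per population limits the precision. The members, the 20 gene lists and the tests were chosen with earlier results of these data known. Named from each list were up to 4 genes with the largest difference between Sca-1+ and negative cells, apart from those marked as named after their values were seen, and the 5 genes nearest each class profile. The counting was tested on simulated data. Python 3.11.15 with numpy and pandas was used. Alternatives were quantile normalization, scaling on 17 poly-A or 18 hybridization control probe sets above the floor, other floors, a pseudocount of 16, probe set means and other size rules.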

Additional observations from a re-analysis of the deposited data

How the results depend on the processing

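No paired analysis was possible because each population has 1 array. Each of the 10 genes has 1 probe set, so averaging probe sets changed none of their values. Over the 7 alternatives that keep the 4-fold rule, none of the differences called as reported changed sign. Raising the floor to the 75th percentile of all signals, the early genes' median log2 difference was -0.22 for Sca-1+ against negative cells and -0.22 for ALCAM+ against negative cells, with 0 early genes past 4-fold in each. The late genes' median was then 2.19 for Sca-1+ against negative cells and -2.19 for ALCAM+ against Sca-1+ cells, and 0 late genes passed in ALCAM+ against negative cells. Of all genes 2.65% were then lower by 4-fold or more in Sca-1+ than in negative cells. In ALCAM+ against negative cells 1.02% were lower and 1.45% higher by that size. With the floor at the 25th percentile the medians for ALCAM+ against negative cells were -4.13 (early) and -1.47 (late) and for ALCAM+ against Sca-1+ cells -1.31 (early, with 1 gene past 4-fold) and -5.61 (late). At that floor 6.12% of all genes were lower by 4-fold or more in ALCAM+ than in Sca-1+ cells. With a pseudocount of 16 and no floor the early medians were -3.75 for ALCAM+ against negative and -1.25 for ALCAM+ against Sca-1+ cells, and the late median -1.36 for ALCAM+ against negative cells. At 8-fold 1 early gene passed in each comparison with negative cells and 0 late genes passed between ALCAM+ and negative cells, where 3 passed at 2-fold. Scaling on poly-A controls moved the median of all genes to 0.27, -0.58 and -0.89 for Sca-1+ against negative, ALCAM+ against negative and ALCAM+ against Sca-1+ cells, and on hybridization controls to 0.24, -0.46 and -0.74. Depth has no direct measure on arrays, and the bound of dim genes is set by the floor.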

Other observations

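The other S100 genes were mostly highest in Sca-1+ cells too. Of 11 measured genes besides S100a8 and S100a9, 9 had their highest signal in Sca-1+ cells, against 38.7% of all measured genes, but 1 was at least 4-fold higher there than in negative cells and 1 lower, and the median log2 difference was 0.33. S100g, named after its values were seen, was above the floor in Sca-1+ cells only, at 94.6. S100a4, a gene of motile fibroblasts and leukocytes, had 636.1 in ALCAM+, 17182.1 in Sca-1+ and 3262.0 in negative cells, the order of the calprotectin genes. S100a6 had 6111.9, 17244.7 and 6806.7 in that order of populations. S100b, which cartilage cells make, went the other way, at 4033.4 in ALCAM+, 675.3 in Sca-1+ and 6237.8 in negative cells, and S100a1 had 6609.9, 2135.8 and 5749.7.

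Of the measured peroxidase and serine protease genes that are not members, 4 of 5 and 4 of 4 were highest in Sca-1+ cells, against 38.7% of all measured genes. Some were only slightly higher there than in negative cells, such as Gpx3 (1.49-fold) and Gpx1, named after its values were seen (1.12-fold). Of the 5 peroxidase genes besides Mpo, 2 were at least 4-fold higher and 0 lower in Sca-1+ than in negative cells: Duox1, a hydrogen peroxide-making oxidase gene (1227.0 against 78.0), and Pxdn, the basement membrane peroxidase gene (3250.3 against 430.3). Epx, the eosinophil peroxidase gene, was above the floor in negative cells only, with 11.8 in ALCAM+, 27.3 in Sca-1+ and 117.2 in negative cells. Of 4 measured serine protease genes besides the early ones, Plat, the tissue plasminogen activator gene, was 7.24-fold higher in Sca-1+ cells, at 5877.1 against 811.5, and 0 were lower. The rest were Htra1, Htra3 and Plau, the last above the floor in Sca-1+ cells only. All other non-member protease genes of the list with a named probe set, the granzymes among them, stayed at or below the floor on all 3 arrays.

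Of B lineage genes 2 of 13 were measured, of which Ebf1, also a stromal gene, was 24.9-fold higher in Sca-1+ than in negative cells and Pax5 had 61.1 against 108.6. Of T and NK cell genes 2 of 10 were measured and 0 were past 4-fold. Of 6 measured megakaryocyte genes 1 was higher in Sca-1+ cells (Itga2b, 1686.8 against 326.1) and 0 lower. The highest signal was in negative cells for 5 of them, against 33.2% of all measured genes, and some, such as Pf4, were above the floor there only. Of 4 measured endothelial genes 1 was higher in Sca-1+ cells (Tek, 630.6 against 18.8). Of 9 measured stem and progenitor genes 3 were higher in Sca-1+ cells (Cd34, Meis1 and Mecom) and 1 lower (Myb). Osteoblast genes were lower by 4-fold or more in Sca-1+ than in negative cells in 3 of 6 cases, with a median of -2.57. Their highest signal was in ALCAM+ cells for 6 of 6, against 28.1% of all measured genes. Over all measured genes 5.46% were higher and 4.71% lower by 4-fold or more in Sca-1+ than in negative cells.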
